A study of Mus musculus with 2 samples.

Results

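The cartilage fibril collagens were followed as 8 genes of the 24866 in the deposited table, chosen by name as the chains that build and decorate the thin fibrils of cartilage. They were Col2a1, Col9a1, Col9a2, Col9a3, Col11a1, Col11a2, Col10a1 and Col27a1, and each was found under its own symbol. Type II collagen, the product of Col2a1 alone, is the bulk of the cartilage fibril and gives the tissue its tensile strength. Type XI collagen, whose chains come from Col11a1, Col11a2 and a modified product of Col2a1, sits in the core of the fibril and limits its width, and type IX collagen, made of 1 chain each from Col9a1, Col9a2 and Col9a3, lies on its surface. Type XXVII collagen (Col27a1) is a fibrillar collagen of cartilage that forms thin fibrils of its own, and type X collagen (Col10a1) is the network-forming collagen by which hypertrophic chondrocytes are recognised.

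The cells came from the femurs of 2 C57/B6 littermates at day 6 after birth, of genotype CTSK-cre+ mTMG. In such mice Cre is made under the cathepsin K promoter and switches a reporter in cells that have made it, and in their descendants, to a membrane GFP, so the sorted GFP-positive cells share present or past activity of that promoter and all carry both alleles. There was no untreated, mutant or Cre-negative group. Each animal filled 1 plate (animal 1 plate 47, animal 2 plate 48), so that animal and plate cannot be told apart. Wells passed when they held 500 or more detected genes and no more than 20% of their counts from mitochondrial genes, 318 in animal 1 and 335 in animal 2 (653 of 658), with medians of 101207 and 119126 counts per cell.

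Cells were grouped by 47 marker genes in 7 lists, none of which holds a cartilage fibril collagen. The collagens were thus not used to form the groups, but they are not independent of the grouping. Over all kept cells the cartilage marker Lect1 had a Spearman rho of 0.73 and 0.74 with Col2a1. A cell took the name of its highest-scoring list when at least 2 of that list's genes had 5 or more counts. In animal 1 and animal 2 this gave 84 and 109 cartilage-like cells, 19 and 38 articular-like cells, 20 and 13 osteoblast-like cells, 49 and 32 tendon-like cells, 60 and 35 periosteal progenitor-like cells, 18 and 6 mural-like cells and 41 and 61 fibroblast-like cells, with 27 and 41 cells left unassigned. The cartilage marker list (8 genes, among them Acan, Sox9 and Matn1) summed to 18140 and 18075 CPM (counts scaled to the same total in every group of summed cells) in cartilage-like cells of animals 1 and 2, against 101 and 73.4 CPM in fibroblast-like cells. The periosteal progenitor list separated its cells less sharply, at 9611 and 7796 CPM in periosteal progenitor-like cells and 6802 and 5899 CPM in fibroblast-like cells. Endothelial markers summed to at most 23.4 CPM in any group of either animal.

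The 250 bases upstream of 4 genes are shown because these genes had different patterns over the groups: Col9a1 was highest in cartilage-like and articular-like cells, Col11a1 reached most groups, Col11a2 reached fewer, and Col10a1 reached 5 counts in 1 cell. Each is the 250 bases before the RefSeq start on build GRCm38.p6, read 5′ to 3′ on the gene's strand, and all 4 genes lie on the plus strand. Capitals mark matches on either strand to 4 motifs: the TATA box (TATAAA), the GC box (GGGCGG), the CCAAT box and a core recognised by SOX proteins (ACAAAG). Of the 32851 upstream windows of the same length, the TATA box letters occur on at least 1 strand in 12.4%, the GC box in 32.7%, the CCAAT box in 33.8% and the SOX core in 16.5%. No marked matches overlap.
Col9a1, first start, chr1:24177360-24177609: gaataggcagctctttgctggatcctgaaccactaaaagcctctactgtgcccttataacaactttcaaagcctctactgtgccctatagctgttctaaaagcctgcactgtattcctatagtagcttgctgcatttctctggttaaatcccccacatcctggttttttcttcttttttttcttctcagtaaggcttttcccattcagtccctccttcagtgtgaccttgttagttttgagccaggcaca
Col11a1, chr3:114030290-114030539: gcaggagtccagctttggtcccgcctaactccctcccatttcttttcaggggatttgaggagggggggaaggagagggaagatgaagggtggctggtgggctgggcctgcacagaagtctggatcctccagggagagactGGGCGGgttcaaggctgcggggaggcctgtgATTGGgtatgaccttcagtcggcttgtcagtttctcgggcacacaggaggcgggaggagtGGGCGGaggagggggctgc
Col11a2, chr17:34038888-34039137: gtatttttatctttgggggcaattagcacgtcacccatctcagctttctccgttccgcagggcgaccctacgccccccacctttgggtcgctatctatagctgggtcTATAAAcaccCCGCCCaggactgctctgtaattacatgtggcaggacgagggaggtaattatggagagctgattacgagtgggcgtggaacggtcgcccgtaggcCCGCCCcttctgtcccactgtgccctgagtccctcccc
Col10a1, chr10:34389731-34389980: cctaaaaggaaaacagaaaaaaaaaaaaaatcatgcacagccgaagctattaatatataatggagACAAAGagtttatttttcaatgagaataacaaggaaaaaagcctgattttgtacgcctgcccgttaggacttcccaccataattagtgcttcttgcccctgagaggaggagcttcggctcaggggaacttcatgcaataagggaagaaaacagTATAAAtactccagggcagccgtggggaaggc
The Col9a1 window shown held none of the 4 motifs and was 43.6% G and C. A second Col9a1 start in the table, whose window is chr1:24194953-24195202 and is not printed, had CCAAT at 18 bases before it and was 56% G and C. The Col11a1 window was 62.4% G and C and held GGGCGG at 110 and 19 bases before the start, and CCAAT on the other strand at 79 bases. The Col11a2 window held TATAAA at 143 bases before the start and GGGCGG on the other strand at 133 and 38 bases. The Col10a1 window held TATAAA at 32 bases before the start, and the SOX core ACAAAG at 185 bases. A match of letters is a description of the window and no evidence of binding. The table matched 6 of the 8 genes; Col2a1 and Col9a3 are named only.

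**Figure D1:**
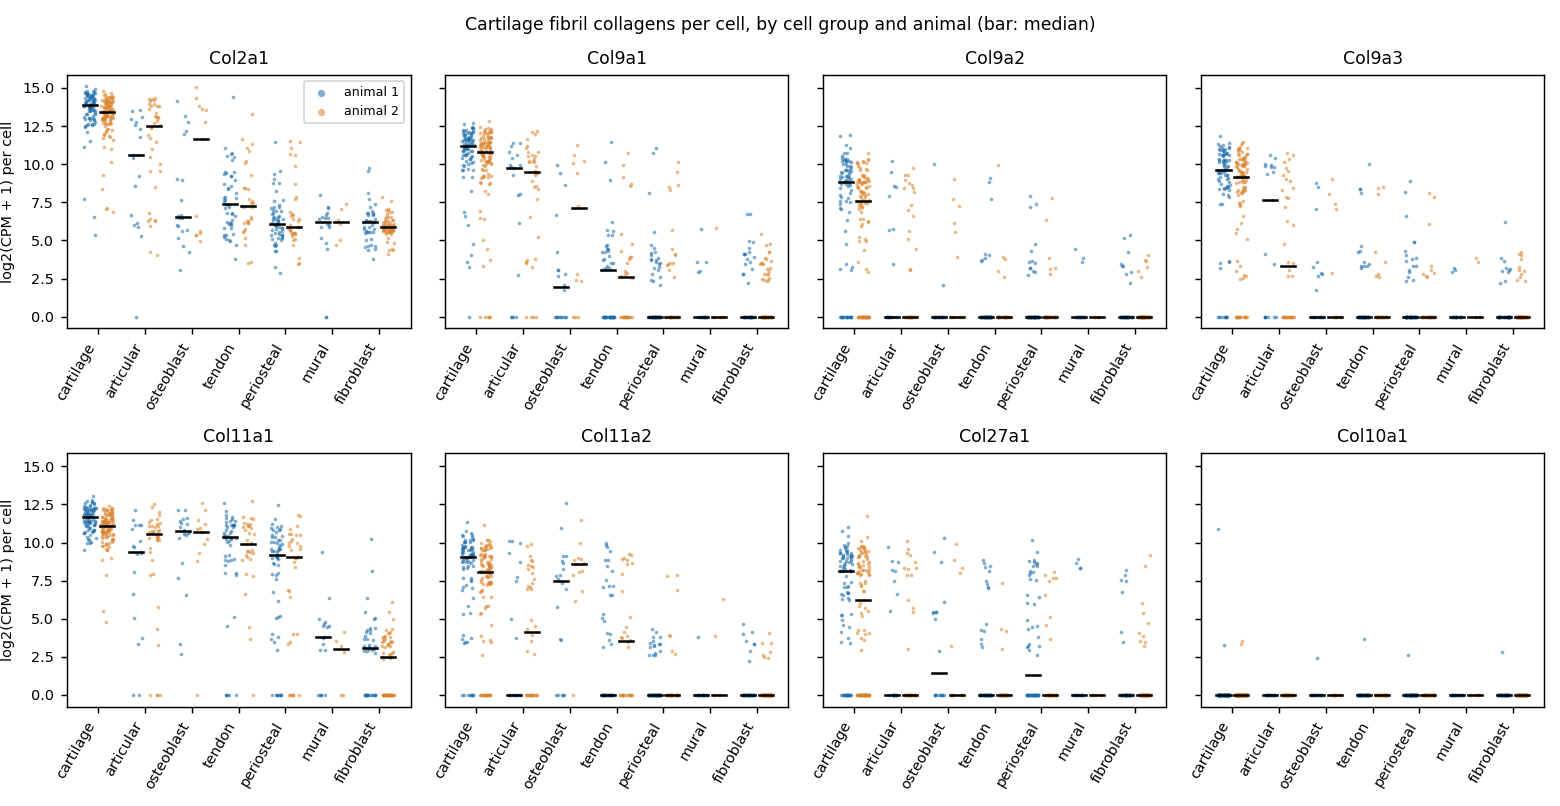
Each point is 1 cell, with log2(CPM + 1) on the vertical axis and cell groups along the horizontal axis; colours separate the 2 animals and the bars are medians over cells. Col2a1 medians are 14775 and 10789 CPM in cartilage-like cells and 72.8 and 58.4 CPM in fibroblast-like cells, Col11a1 stays high in osteoblast-like, tendon-like and periosteal progenitor-like cells, and Col10a1 is near 0 in all but 1 cell.

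Col2a1 (chr15:97975602-98004695, minus strand, 54 exons in its longest coding transcript), in GENCODE vM21 on build GRCm38 as for the coordinates that follow, was the most counted of the 8 genes, with 402659 counts over the kept cells. It stood at 14588 CPM in animal 1 and 11439 CPM in animal 2 in cartilage-like cells. Articular-like cells had 3678 and 7285 CPM, osteoblast-like cells 2110 and 6024 CPM, tendon-like cells 883 and 976 CPM, periosteal progenitor-like cells 116 and 413 CPM, mural-like cells 74.8 and 73.97 CPM and fibroblast-like cells 88.2 and 61.4 CPM. The order from cartilage-like to articular-like to tendon-like held in both animals, the articular-like and osteoblast-like ranges overlapped each other, and the mural-like and fibroblast-like values did too.

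The fibroblast-like cells were also taken as a floor for Col2a1, because 73.2% and 85.2% of them held 5 or more counts of it, at medians of 72.8 and 58.4 CPM. The source of these counts was not tested. Single fibroblast-like cells reached 762 and 872 CPM in quadrants 3 and 4 of plate 47. Over the 8 plate quadrants the fibroblast-like median was 46.8 to 113 CPM, or 0.986% to 2.10% of the Col2a1 CPM of the whole quadrant. After every cell was thinned to 30000 counts, which left out 9 shallower cells, the share with 5 or more counts was 97.6% and 98.1% in cartilage-like cells (83 and 108 cells), against 12.5% and 9.84% in fibroblast-like cells (40 and 61 cells). The thinned share was 20.3% and 25.7% in periosteal progenitor-like cells and 22.2% and 16.7% in mural-like cells, whose unthinned shares (78.3% and 68.6%, and 72.2% and 83.3%) were close to the fibroblast-like ones. For the other members, fibroblast-like medians per quadrant were at most 19.2 CPM for Col11a1 and 5.39 CPM for Col9a1. As shares of the whole quadrant these were at most 1.09% and 0.582%, so the highest Col11a1 share lay within the Col2a1 range. The medians were 0 for Col9a2, Col9a3, Col11a2 and Col27a1. Their quadrant levels were only 115 to 467 CPM, too low for a median of 0 to show that such a floor is absent.

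The 3 chains of type IX collagen had their highest levels in cartilage-like and articular-like cells. Col9a1 (chr1:24177610-24252684, plus strand) had 2571 and 2080 CPM in cartilage-like cells of animals 1 and 2, 909 and 1067 CPM in articular-like cells, 104 and 441 CPM in osteoblast-like cells, 108 and 159 CPM in tendon-like cells, 43.8 and 84.1 CPM in periosteal progenitor-like cells, 3.74 and 5.19 CPM in mural-like cells and 10.3 and 3.35 CPM in fibroblast-like cells. Cartilage-like and articular-like values did not overlap with those of any other named group. Col9a3 (chr2:180597790-180622189, plus strand) had 1041 and 744 CPM in cartilage-like cells, 514 and 242 CPM in articular-like cells and at most 81.2 CPM in every other named group. Col9a2 (chr4:121039385-121055322, plus strand) had 634 and 335 CPM in cartilage-like cells, 158 and 117 CPM in articular-like cells and at most 65.8 CPM elsewhere among the named groups.

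Both type XI chains were also well represented in osteoblast-like and tendon-like cells. Col11a1 (chr3:114030540-114220718, plus strand) had 3337 and 2344 CPM in cartilage-like cells, 1150 and 1582 CPM in articular-like cells, 2124 and 1604 CPM in osteoblast-like cells, 1604 and 1421 CPM in tendon-like cells, 888 and 879 CPM in periosteal progenitor-like cells, 79.2 and 7.79 CPM in mural-like cells and 32.7 and 6.33 CPM in fibroblast-like cells. The articular-like and tendon-like ranges overlapped, the lower osteoblast-like value equalled the higher tendon-like value to the nearest CPM, and all 3 groups lay above the periosteal progenitor-like values. Col11a2 (chr17:34039437-34066685, plus strand) had 586 and 352 CPM in cartilage-like cells, 248 and 146 CPM in articular-like cells, 314 and 363 CPM in osteoblast-like cells and 121 and 129 CPM in tendon-like cells. The cartilage-like and osteoblast-like ranges overlapped. In periosteal progenitor-like cells, where Col11a1 was high, Col11a2 had 2.32 and 17.6 CPM, against 2.20 and 0.869 CPM in fibroblast-like cells.

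Col27a1 (chr4:63214004-63334991, plus strand) stood below Col2a1, Col9a1 and Col11a1 in cartilage-like cells. It had 338 and 279 CPM in cartilage-like cells, 145 and 146 CPM in articular-like cells, 112 and 153 CPM in osteoblast-like cells, 55.7 and 8.46 CPM in tendon-like cells, 118 and 48.4 CPM in periosteal progenitor-like cells, 107 and 0 CPM in mural-like cells and 31.6 and 15.3 CPM in fibroblast-like cells. In mural-like cells of animal 2 a count of 0 in 6 cells allows up to 3.89 CPM. The osteoblast-like range overlapped both the articular-like and the periosteal progenitor-like range.

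Most cartilage-like cells held most of the chains. A gene was called detected at 5 or more counts. Among cartilage-like cells of animals 1 and 2, Col11a1 was detected in 100% and 98.2%, Col2a1 in 98.8% and 100%, Col9a1 in 92.9% and 91.7%, Col9a3 in 84.5% and 77.98%, Col11a2 in 79.8% and 78.9%, Col9a2 in 73.8% and 65.1% and Col27a1 in 69.0% and 55.05%. All 6 chains of types II, IX and XI were detected together in 61.9% of cartilage-like cells of animal 1 (exact 95% interval 50.7% to 72.3%) and 50.5% of animal 2 (40.7% to 60.2%). The same was true of 21.1% and 21.1% of articular-like cells and 5% and 15.4% of osteoblast-like cells, against 0 of 41 and 0 of 61 fibroblast-like cells. These intervals cover counting error only. The joint share depends on depth, and at 30000 counts per cell it was 50.6% and 40.7% in cartilage-like cells.

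**Figure D2:**
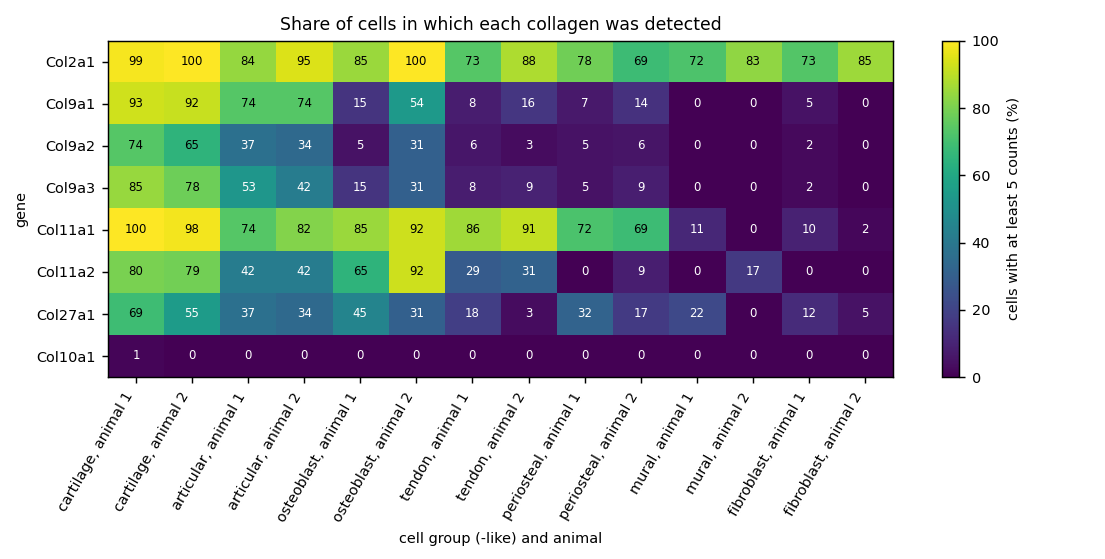
Each square gives the percentage of cells of 1 group and animal in which a collagen reached 5 counts, with genes down the page and groups across it. Col2a1 is at 68.6% or more in every column, which includes the low level described for fibroblast-like cells, whereas Col9a1 is at 92.9% and 91.7% in cartilage-like cells and 4.88% and 0% in fibroblast-like cells.

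Each named gene was then tested between groups in 1 edgeR quasi-likelihood fit over all genes, on counts summed per animal and group. Mural-like cells stayed out because animal 2 had 6. Of the 8 collagens 7 passed the filter on low counts, and Col10a1 did not. The reference was the mean of the log2 levels of the other 5 groups. A group with very low counts thus raised a fold change more than in a mean of CPM. For Col2a1 the mean CPM as scaled in the fit was 14263 in cartilage-like cells, 2082 over the other 5 groups and 71.3 in fibroblast-like cells. For Col11a1 these were 3111, 1118 and 18.4. Against that reference, 43 of the 13318 genes tested (0.323%) were higher in cartilage-like cells and 18 (0.135%) were lower. The threshold was an adjusted p under 0.05 (Benjamini-Hochberg over all genes tested). The collagens higher in cartilage-like cells were Col2a1, Col9a1, Col9a2, Col9a3, Col11a1 and Col11a2. That group was formed on cartilage markers that vary with collagens over cells, so higher values there are partly fixed by the grouping. Their log2 fold changes were 4.23 ± 0.36 (SE of the fit) for Col2a1, 4.63 ± 0.42 for Col9a1, 4.57 ± 0.27 for Col9a2 and 4.83 ± 0.31 for Col9a3, with edgeR adjusted p of 0.00828, 0.00923, 0.00206 and 0.00208. The log2 fold changes of the type XI chains were 2.44 ± 0.35 for Col11a1 (edgeR adjusted p 0.0349) and 3.67 ± 0.50 for Col11a2 (edgeR adjusted p 0.0273). Col27a1 had a log2 fold change of 2.46 ± 0.46 and missed the threshold (edgeR adjusted p 0.0854). The median of the members tested was 4.23, beside a median of 0.38 over all genes tested; a gene that passed the filter only through the group where it is high tends to differ, so that median describes the genes kept and supports nothing.

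Some of these calls were lost in 2 alternative fits, both of which also left out osteoblast-like cells, since fewer than 10 of them remained in animal 2. Without the 134 cells that scored high on 2 lists Col11a1 had an edgeR adjusted p of 0.155, and with Leiden clusters of the same markers in place of the scores Col9a2 had 0.0811 and Col11a2 had 0.123. Their log2 fold changes there were 2.77, 4.54 and 4.0, and the changed cells and the changed set of groups cannot be told apart. Col27a1, not called in the main fit, passed the threshold in 3 of 9 alternatives. These were the DESeq2 Wald test, the fit without the cells that scored high on 2 lists and the fit after thinning. Both animals went the same way for all 7 genes.

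**Figure D3:**
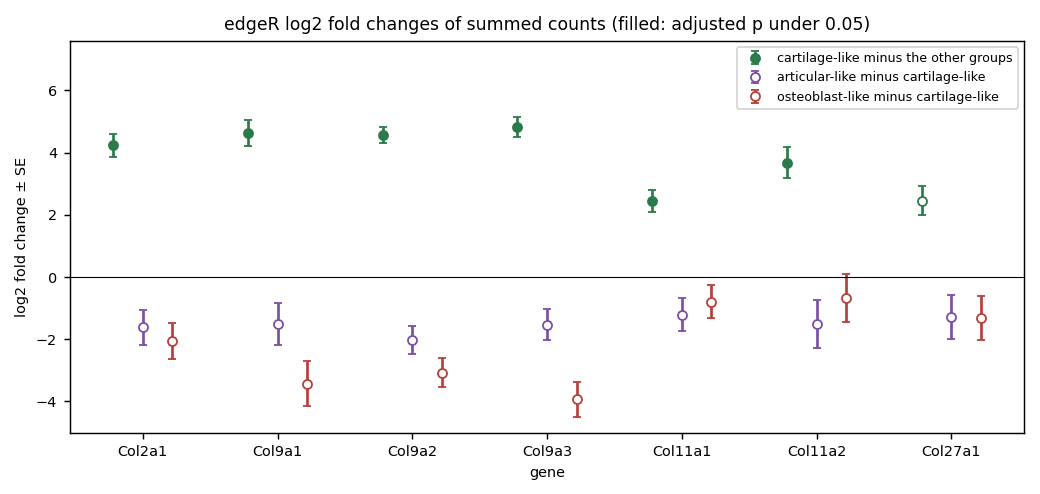
Points are edgeR log2 fold changes with SE for 7 genes in 3 comparisons, and filled points have an adjusted p under 0.05. The filled points all belong to the comparison of cartilage-like cells with the other groups, where Col9a3 is at 4.83 and Col11a1 at 2.44; in the other comparisons all points lie below 0 and none is filled.

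Articular-like cells, which carry Prg4, Cytl1, Gdf5, Erg and Creb5 as markers, were set against cartilage-like cells. The means over the 2 animals were lower for every member: 5481 ± 2550 CPM in articular-like and 13014 ± 2227 CPM in cartilage-like cells for Col2a1 (SD, n = 2 each), 988 ± 112 and 2325 ± 347 CPM for Col9a1, and 1366 ± 305 and 2841 ± 702 CPM for Col11a1. The log2 fold changes ran from -2.02 ± 0.44 for Col9a2 to -1.21 ± 0.54 for Col11a1. None of the 7 passed the threshold, and neither did any of the 13318 genes (0% higher and 0% lower; 854 genes at an unadjusted p under 0.05 in edgeR). The smallest edgeR adjusted p among the members was 0.45, for Col9a2, and the DESeq2 Wald test gave 0.0472 for it. Cartilage markers also summed lower, to 4865 and 5140 CPM in articular-like cells against 18140 and 18075 CPM in cartilage-like cells, and their part in the result was not tested. Col2a1 was uneven over the articular-like cells of animal 1, with a median of 1553 CPM and a summed level of 3678 CPM.

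Osteoblast-like cells, which make the mineralised matrix of bone and carry Ibsp, Bglap and Dmp1, were set against cartilage-like cells in the same way. The type IX chains had the lowest values: the log2 fold change was -3.94 ± 0.55 for Col9a3 (edgeR adjusted p 0.0773), -3.43 ± 0.73 for Col9a1 (0.192) and -3.07 ± 0.46 for Col9a2 (0.0816, both edgeR). Col2a1 had -2.06 ± 0.59 (edgeR adjusted p 0.322). The type XI chains had -0.80 ± 0.53 for Col11a1 (edgeR adjusted p 0.695) and -0.68 ± 0.77 for Col11a2 (edgeR adjusted p 0.857). No collagen passed, against 6 genes lower (0.0451%) and 3 higher (0.0225%) of 13318. Calls here moved with the tool: the DESeq2 Wald test put Col9a1, Col9a2 and Col9a3 past the threshold, with adjusted p of 0.00576, 1.85e-05 and 4.0e-10. Thinning put Col9a2 and Col9a3 past it and the fit with no replicate block put Col9a3 past it. Cartilage markers summed to 1828 and 5864 CPM in osteoblast-like cells.

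The osteoblast-like cells differed in how many cartilage markers they held. After the values were seen, the group was split by how many of the 8 cartilage markers reached 5 counts, and the split is a description with no test. Cells with 2 or more (8 in animal 1 and 7 in animal 2) had 4115 and 12923 CPM of Col2a1, and cells with 0 or 1 (12 and 6 cells) had 104 and 44.8 CPM, which is the fibroblast-like level. In the cells with 0 or 1 markers Col9a1 was at 4.29 and 2.69 CPM, yet Col11a1 was at 1850 and 1081 CPM and Col11a2 at 456 and 223 CPM. Col11a1 was detected in 9 of 12 and 5 of 6 of these cells and Col11a2 in 8 of 12 and 5 of 6. In animal 1 a single well held 52.0% of their Col11a2 counts. Without its top Col11a2 well, Col11a2 over the osteoblast-like cells of animal 1 was 199 CPM in place of 314 CPM.

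**Figure D4:**
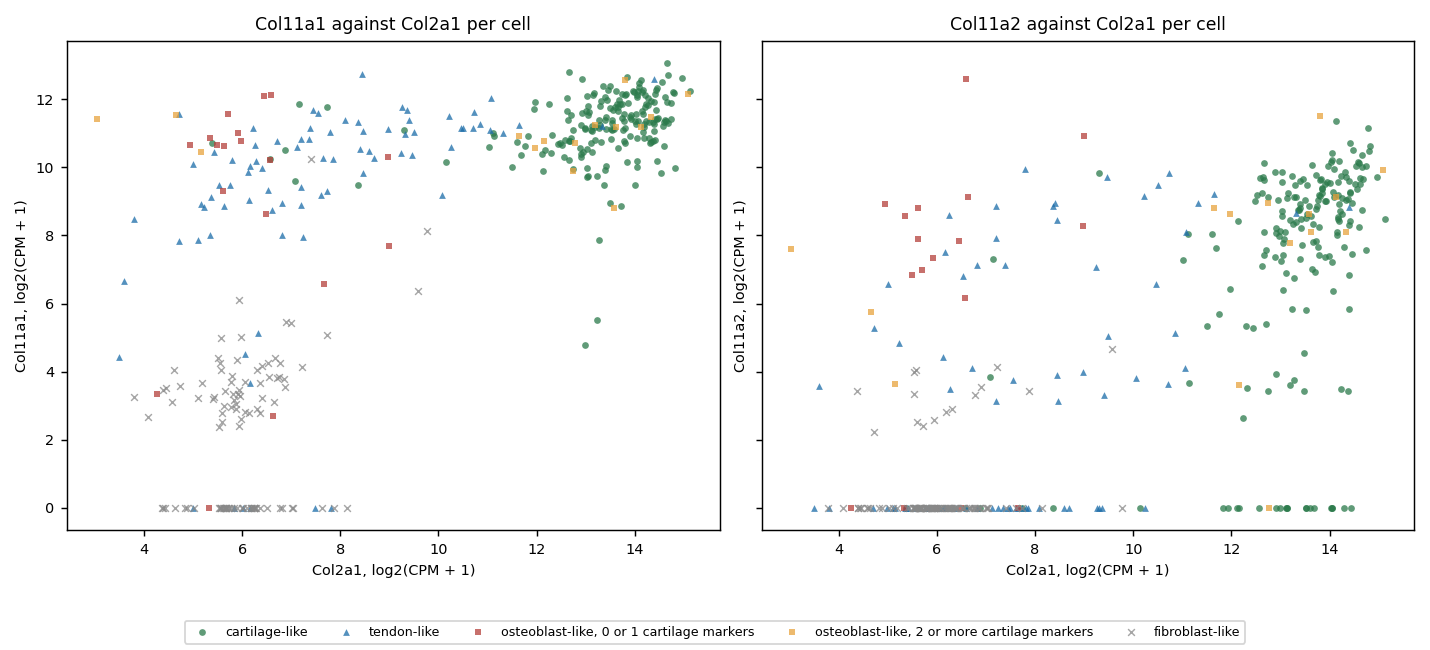
Each point is a cell, with Col2a1 on the horizontal axis and Col11a1 (left) or Col11a2 (right) on the vertical axis, both as log2(CPM + 1). Cartilage-like cells are high on both axes and fibroblast-like cells low on both, while tendon-like cells and osteoblast-like cells with 0 or 1 cartilage markers are low in Col2a1 (104 and 44.8 CPM in the osteoblast-like ones) and high in Col11a1 (1850 and 1081 CPM).

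Cells with Col11a1 but little Col2a1 were common outside cartilage. Of tendon-like cells, 71.4% in animal 1 and 68.8% in animal 2 had Col11a1 at 5 or more counts with Col2a1 under 1000 CPM. The share was 70.0% and 54.3% in periosteal progenitor-like cells and 60% and 38.5% in osteoblast-like cells, against 3.57% and 4.59% in cartilage-like cells and 9.76% and 1.64% in fibroblast-like cells. Fibroblast-like cells were then taken as the reference for 3 more comparisons, chosen after they were seen to have the lowest levels among the 6 groups in the fit, so that higher values are partly fixed by that choice and the comparisons share those controls. Col11a1 had a log2 fold change of 6.72 ± 0.69 in osteoblast-like cells (edgeR adjusted p 0.00734), 6.60 ± 0.68 in tendon-like cells (edgeR adjusted p 0.0132) and 5.73 ± 0.66 in periosteal progenitor-like cells (edgeR adjusted p 0.0232). Genes called higher in these comparisons were 0.368%, 0.293% and 0.12% of 13318, and genes called lower were 0.473%, 0.0676% and 0.03%. Without the cells high on 2 marker lists the Col11a1 calls in tendon-like and periosteal progenitor-like cells were lost (edgeR adjusted p 0.115 and 0.174), at log2 fold changes of 6.12 and 5.20, in a fit that also had no osteoblast-like cells.

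Col2a1 in the same comparisons had a log2 fold change of 5.57 ± 0.68 in osteoblast-like cells (edgeR adjusted p 0.0144), 3.76 ± 0.62 in tendon-like cells (0.0708) and 1.66 ± 0.59 in periosteal progenitor-like cells (0.86, both edgeR). Much of the tendon-like Col2a1 lay in few wells, since 1 well held 55.7% of it in animal 1 and 1 well held 40.3% in animal 2. Col11a2 had 7.83 ± 1.06 in osteoblast-like cells (edgeR adjusted p 0.0195), 6.57 ± 1.01 in tendon-like cells (0.0501) and 2.77 ± 0.93 in periosteal progenitor-like cells (0.807, both edgeR). The type IX chains were called higher in osteoblast-like cells, at 5.17 ± 0.81 for Col9a1, 5.21 ± 0.53 for Col9a2 and 4.73 ± 0.60 for Col9a3 (edgeR adjusted p 0.036, 0.00734 and 0.016), although 1 well held 99.5% of the Col9a2 counts of osteoblast-like cells in animal 1. These values too are partly fixed by the choice of reference. In the split above, osteoblast-like cells with 0 or 1 cartilage markers had less Col9a1 than the fibroblast-like cells of the same animal. In tendon-like cells Col9a2 and Col9a3 were called higher, at 4.04 ± 0.50 and 4.22 ± 0.59 (edgeR adjusted p 0.0267 and 0.0404), and Col9a1 had 4.39 ± 0.78 (edgeR adjusted p 0.0867). Few tendon-like cells held 5 or more counts, a mean of 4.62% for Col9a2 and 8.77% for Col9a3. Without its top well Col9a2 fell from 29.6 to 17.4 CPM in animal 1 and from 21.0 to 1.39 CPM in animal 2. Col9a3 fell from 47.5 to 24.9 CPM and from 35.7 to 22.7 CPM. Both tendon-like calls were lost with Leiden clusters (edgeR adjusted p 0.94 and 0.922) and without cells high on 2 lists (0.337 and 0.0566, both edgeR). None of the 3 passed in periosteal progenitor-like cells, where the smallest edgeR adjusted p was 0.102, for Col9a2. Col27a1 passed in none of the 3 comparisons, with a smallest edgeR adjusted p of 0.205 in osteoblast-like cells. In the periosteal progenitor-like cells with 0 or 1 cartilage markers (46 and 26 cells) Col11a1 was at 772 and 594 CPM, and Col11a2 was detected in none of them.

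Chain ratios were taken from summed counts and divided by transcript length (the longest coding transcript), which assumes that counts grow with length; where along the transcript reads fell is not given in the sources used here. Within cartilage-like cells the amounts per kb relative to Col2a1 were 0.235 and 0.242 for Col9a1, 0.12 and 0.109 for Col9a3, 0.0759 and 0.0511 for Col9a2, 0.152 and 0.136 for Col11a1, 0.0339 and 0.026 for Col11a2 and 0.0155 and 0.0163 for Col27a1, in animals 1 and 2. The type IX chains, which join in equal numbers in the protein, were unequal as transcripts: Col9a3 was 0.51 and 0.45 of Col9a1 per kb and Col9a2 was 0.323 and 0.211 of it. Col11a2 was 0.223 and 0.191 of Col11a1 per kb in cartilage-like cells.

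The ratio of Col11a1 to Col2a1 differed between groups. In counts, Col11a1 per Col2a1 was 0.229 and 0.205 in cartilage-like cells, 0.313 and 0.217 in articular-like cells, 1.01 and 0.266 in osteoblast-like cells, 1.82 and 1.46 in tendon-like cells and 7.65 and 2.13 in periosteal progenitor-like cells. Both animals placed the tendon-like and periosteal progenitor-like ratios above those of cartilage-like and articular-like cells. The periosteal progenitor-like ratio rests on a Col2a1 level near the floor, with medians over cells of 67.5 and 58.97 CPM beside fibroblast-like quadrant medians of 46.8 to 113 CPM, so its size is uncertain. Col9a1 per Col2a1 in counts was 0.176 and 0.182 in cartilage-like cells. It was 0.247 and 0.146 in articular-like cells and 0.0494 and 0.0731 in osteoblast-like cells, which lay below both.

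Within cartilage-like cells the members varied together to different degrees. Spearman correlations across cells are given as descriptions, over 84 cells in animal 1 and 109 in animal 2 that share a plate and differ in depth. The highest was between Col9a1 and Col9a3, at 0.68 and 0.61, and it was 0.70 and 0.58 after thinning. Col2a1 had 0.46 and 0.33 with Col9a1, 0.52 and 0.30 with Col11a2 and 0.34 and 0.31 with Col11a1. Col27a1 had -0.02 and 0.26 with Col2a1 and 0.15 and 0.08 with Col11a1, lower than the Col2a1 values just given. Correlations of the members with total counts per cell were between -0.00433 for Col11a1 in animal 1 and 0.301 for Col27a1 in animal 2. Over all 318 and 335 kept cells, where groups differ in level, Col2a1 and Col9a1 had 0.73 and 0.79.

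**Figure D5:**
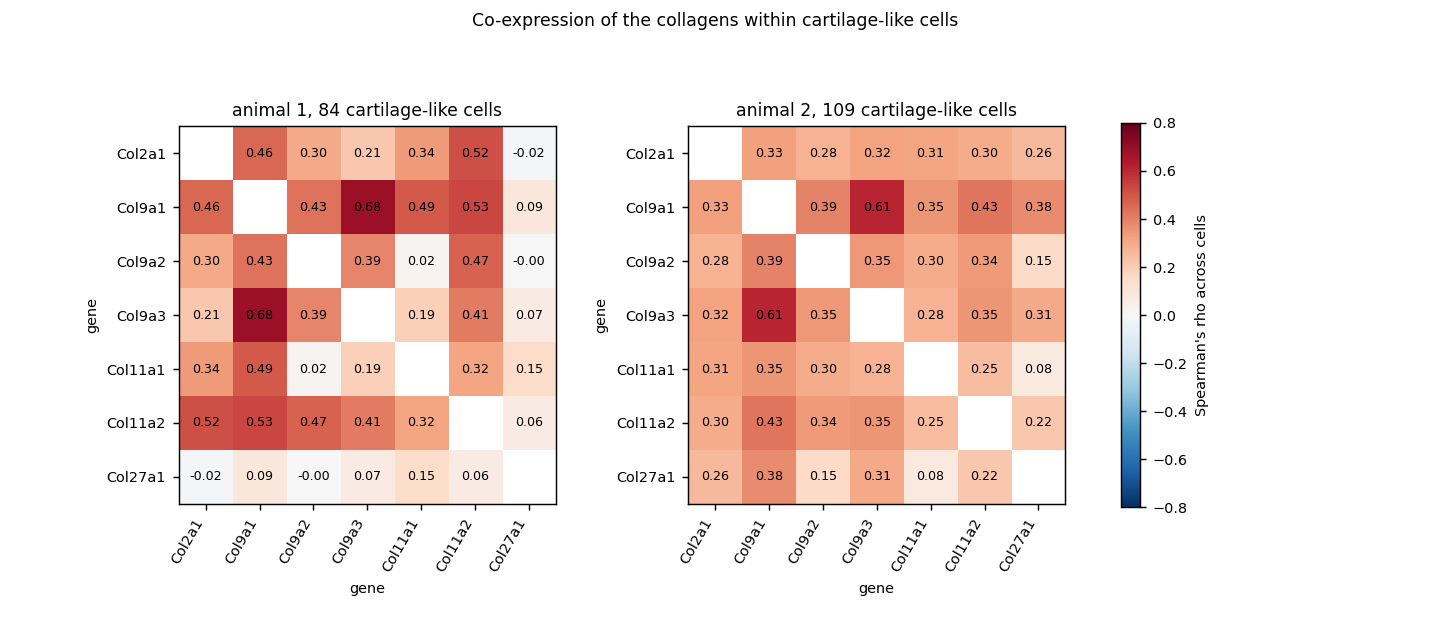
Squares give Spearman's rho between 7 collagens across cartilage-like cells, 1 panel per animal. Col9a1 with Col9a3 is the darkest square in both panels (0.68 and 0.61), and the Col27a1 row is pale in animal 1.

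Outside the 8 collagens, the genes whose pattern over all kept cells was most like Col2a1 were sought among 6458 genes with 5 or more counts in at least 5% of cells, ranked by the lower Spearman rho of the 2 animals. They were Lect1, 3110079O15Rik, Mia, Scrg1 and Hapln1, with rho in animal 1 of 0.73, 0.72, 0.71, 0.69 and 0.68 and in animal 2 of 0.74, 0.74, 0.73, 0.73 and 0.73. Lect1, 3110079O15Rik and Hapln1 were markers used to group the cells. For Col27a1 the 5 were 3110079O15Rik, Mia, Hapln1, Wwp2 and Sox9, with a highest rho of 0.46 (Sox9, animal 1). Sox9 ranked last of these 5, since its rho in animal 2 was 0.34, and it too was a marker used to group the cells. Within cartilage-like cells none of them was among the 5 genes ranked highest for Col27a1, which were Nid2, Imp3, Med1, Ppwd1 and Tnrc6a. The rho of these 5 was 0.21 to 0.33 over the 2 animals, and no likeness is read from values this low. Sox9 encodes the transcription factor that drives the chondrocyte programme.

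Col10a1 (chr10:34389981-34397085, plus strand, 3 exons) had 758 counts in all, and 751 of them (99.1%) lay in 1 cartilage-like cell of animal 1. That cell had 389839 counts and stood at 1926 CPM of Col10a1. It also had 1893 CPM of Panx3, a channel protein of prehypertrophic and hypertrophic chondrocytes and osteoblasts, which was the highest among cartilage-like cells, and 677 CPM of Pth1r, the receptor for parathyroid hormone-related protein. Its Col2a1 (8375 CPM) was below the median of 12142 CPM of the other cartilage-like cells. Its Col9a2 (1293 CPM) and Col9a1 (3804 CPM) were above their medians of 256 and 1940 CPM. It held 0 counts of Ihh, Ibsp and Sp7, but the medians of these genes in the other cartilage-like cells were also 0. Its Spp1 (1852 CPM), Mef2c (410 CPM) and Runx2 (113 CPM) were above their medians of 16.6, 0 and 0 CPM. Alpl had 5 counts and Mmp13 had 1. The other 7 counts were single counts, 5 in wells of the same plate quadrant and 2 in wells with the same barcode on the other plate; single counts are not read as expression. In animal 2, 0 of 335 cells had 5 counts, which allows a share of up to 0.896%.

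Markers of the hypertrophic programme were scarce in cartilage-like cells. The 5 genes read (Ihh, Pth1r, Mef2c, Panx3 and Alpl) were not particular to cartilage. They summed to 340 and 125 CPM in cartilage-like cells and to 1110 and 944 CPM in osteoblast-like cells. At least 2 of them reached 5 counts in 10 cartilage-like cells of animal 1, among them the cell with Col10a1, and in 4 of animal 2. With 4 cells in animal 2 no test was made. Col2a1 was at 10431 and 9605 CPM in those cells, against 15890 and 11551 CPM in the other cartilage-like cells, and Col9a1 was at 2752 and 2068 CPM, against 2514 and 2080 CPM. Col9a2 was at 1123 and 258 CPM in those cells, against 481 and 340 CPM in the others, so the animals went opposite ways. Col27a1 was at 388 and 518 CPM in those cells, against 322 and 264 CPM in the others. The ranges over cells overlapped for each of these genes.

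The genes that work with these collagens were read from 5 lists in the comparison of cartilage-like cells with the other groups, where 0.323% of all genes were called higher and 0.135% lower. Of 15 cartilage matrix partners all were tested, 5 were higher and 2 lower, with a median log2 fold change of 1.81 beside 0.38 over all genes. Mia, a small secreted protein of cartilage, had 4.44 ± 0.51 (edgeR adjusted p 0.0136), and Scrg1, a secreted protein of differentiating chondrocytes, had 4.16 ± 0.43 (edgeR adjusted p 0.0109). Lower were Cilp, the cartilage intermediate layer protein, at -6.78 ± 0.95 (edgeR adjusted p 0.031), and Vcan, the large proteoglycan versican, at -4.25 ± 0.49 (edgeR adjusted p 0.0136). Cilp was also near 0 in osteoblast-like cells, at a mean of 0.232 CPM beside 0.218 CPM in cartilage-like cells. It was 45.5 to 151 CPM in the remaining groups of the fit. Comp, Chad and Fmod, which bind collagen fibrils, were the other 3 that were higher against the mean log2 level of the other groups. Fmod and Chad were not highest in cartilage-like cells. The Fmod mean as scaled in the fit was 1122 CPM there, 2047 in tendon-like and 1161 in articular-like cells, and lower in the remaining groups. For Chad it was 2203 CPM in cartilage-like and 2512 in osteoblast-like cells, and lower in the remaining groups. Both genes were lowest in fibroblast-like cells, which raised their fold changes.

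The other 4 lists held 2 called genes in all. Of 11 cartilage transcriptional regulators tested (12 listed) 1 was higher, Wwp2, a ubiquitin ligase that binds SOX9, at 2.67 ± 0.28 (edgeR adjusted p 0.011), and the list's median was 2.66. Of 26 collagen processing genes tested (27 listed), which hydroxylate, fold, cleave and cross-link all fibrillar collagens, none passed in either direction and the median was 0.08. At an unadjusted p under 0.05 in the same edgeR fit, 5 of those 26 genes fell below that limit, beside 1426 of all 13318. The DESeq2 Wald test called 3 of the 26, none of them higher in cartilage-like cells. None of the 11 other fibrillar and fibril-associated collagens passed either, at a median of -0.56. Of these 11, 6 were at an unadjusted p under 0.05 in edgeR, and DESeq2 called 4, again none higher. The closing section gives the number of all genes called by DESeq2. Of 10 collagen receptors and collagenases tested (12 listed) 1 was lower, and the median was -1.16. The gene was Mmp13, the collagenase that cuts type II collagen, at -2.88 ± 0.45 (edgeR adjusted p 0.0491). Its mean as scaled in the fit was 1.24 CPM in cartilage-like, 0.243 in articular-like, 1.45 in tendon-like and 1.87 in fibroblast-like cells. Only osteoblast-like cells (708 CPM) and periosteal progenitor-like cells (175 CPM) were high. The lists differ in level and number of genes, and no test between them was made.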

How the data were processed

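Single GFP-positive cells were sorted into wells, and cDNA was made by template switching and made into libraries with Nextera XT, per the labels' protocols. CASAVA and the build mm10 are named in the submitters' processing notes, and no source used here names the aligner or counter. The authors deposited whole-number counts per gene and well. Whether a count is a read or a molecule is not stated: the median nonzero count was 18 and 23.1% of nonzero counts were 1. The 95 well barcodes were each used in more than 1 of the 8 plate quadrants, so wells were identified by barcode and quadrant.

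Wells needed 500 or more genes and no more than 20% mitochondrial counts, which left out 5. Kept totals were 35542100 counts in animal 1 and 42280920 in animal 2, and 9767 to 675621 per cell. No doublet caller was run; 134 cells scored high on 2 marker lists and 46 lay near the boundary between groups. Counts were summed per animal and group and tested with edgeR 4.0.16 (R 4.3.3; TMM, filterByExpr, quasi-likelihood, animal as a block because each animal gave every group, 12 libraries, residual df 5), and p was adjusted by Benjamini-Hochberg over 13318 genes; the 47 markers that made the groups were not among them. SE is the log2 fold change divided by the root of F. The spread is that of 2 littermates. DESeq2 1.42.0, other scaling, no filter, no block, Leiden clusters (leidenalg 0.10.2, 14 clusters), thinning to 30000 counts and a stricter filter (1000 or more genes, no more than 10% mitochondrial counts, 640 cells) were alternatives. The fit was tested on simulated data. Intervals are exact Clopper-Pearson at 95%, and a count of 0 was taken to allow 3 counts. The genes, lists and tests were chosen with earlier results of these data known. Named were the 8 collagens, the 4 called genes of each list with the largest absolute change, and the 5 genes most like Col2a1 and Col27a1; Col10a1, present in 1 cell, was given none. Comp, Chad and Fmod were named beyond that rule after their values were seen.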

Additional observations from a re-analysis of the deposited data

Results flagged for a closer look

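The cells that no marker list claimed (27 in animal 1 and 41 in animal 2) entered no comparison, yet held cartilage fibril collagens above the level of fibroblast-like cells. Col2a1 averaged 2161 CPM in them, at 2957 and 1364 CPM in the animals, against 88.2 and 61.4 CPM in fibroblast-like cells. Col11a1 averaged 1092 CPM, at 913 and 1271 CPM, against 32.7 and 6.33 CPM in fibroblast-like cells. All 6 chains of types II, IX and XI were detected in 2 of 27 and 2 of 41 of these cells. Cartilage markers summed to 1925 and 1139 CPM in them, and their part in the values was not tested.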

How the results depend on the processing

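With 2 animals, each on its own plate, the spread rests on few libraries, and osteoblast-like cells (20 and 13) are the thinnest group in the fit. Of 350 tested alternatives for single collagens over the 6 comparisons, 316 stayed on the same side of the threshold, 25 passed it anew and 9 lost it. The number of collagens called in cartilage-like cells against the other groups stayed within 1.5 times of 6, while all genes called, 61, became 310 by the DESeq2 Wald test and 164 after thinning. For articular-like against cartilage-like cells, 0 collagens became 1 by DESeq2, and 0 genes became 160 by DESeq2 and 11 after thinning. For osteoblast-like against cartilage-like cells, 0 collagens became 3 by DESeq2 and 2 after thinning, and 9 genes became 348 and 59. With no replicate block those 0 collagens became 1 and the 9 genes became 24; the block changed no other call of a collagen in the 3 comparisons with cartilage-like cells. Leaving out 1 animal gave values without a test, of 2.23 to 5.06 on the log2 scale for the collagens in cartilage-like cells.

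The log2 fold change of Col27a1 in tendon-like against fibroblast-like cells, 0.50, became -0.77 without replicate 1, 1.06 without replicate 2 and -1.10 with Leiden clusters, and that of Col9a3, 4.22 and called, became -0.40 and lost its call with Leiden clusters. The cause was not tested. The mean ratio of Col9a1 to Col2a1 counts in cartilage-like cells, 0.179, was 0.164 as a median over cells, 0.175 without the top wells, 0.238 per kb and 0.176 to 0.182 by animal. The mean correlation of Col2a1 with Col9a1 over all cells, 0.76, was 0.40 within cartilage-like cells, 0.84 by Pearson and 0.73 to 0.79 by animal. Osteoblast-like cells could not be compared with Leiden clusters or without cells high on 2 lists, where under 10 cells remained in an animal. The test settings were not run for the hypertrophic split, which had no test; its median log2 ratio over 7 collagens was -0.24 to 0.22 by animal.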
